A study of Mus musculus with 26 samples.

Results

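Left ventricle RNA of 6 male and 6 female control mice was compared, with autosomal genes only, to describe how the sexes differ at baseline. These are 12 of the 26 libraries of the study, chosen from the labels as the mice without Cre, split by sex. The study compared mice lacking Ppp2r2a in heart muscle (cKO) with controls (Ctrl) in both sexes. Ppp2r2a encodes B55α, a regulatory subunit that directs the phosphatase PP2A to its substrates.

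Both control groups were labelled with the genotype aMHC-Cre0/0-Ppp2r2aL/L, by which they carried loxP-flanked Ppp2r2a alleles and no Cre transgene. The flanked line came from C57BL6/N mice and the Cre line from FVB mice, so the background was mixed, although the strain is labelled C57BL/6N for every mouse. All 12 mice were 12 to 16 weeks old and had received saline from an osmotic minipump for 2 weeks, so no untreated mice were compared. The 14 cKO mice, 7 of each sex with the genotype aMHC-CreTg/0-Ppp2r2aL/L, gave a second measure of the same sex difference. They were also part of the single fit of 26 libraries, and so of the estimate of spread behind the tests in controls. In these the α-myosin heavy chain promoter drives Cre in cardiomyocytes, and the other cells of the ventricle keep Ppp2r2a. Nothing in the labels gives the litter or the day of collection of a mouse, and the stage of the oestrous cycle is not recorded.

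The adult ventricle is built of a few kinds of cells. Cardiomyocytes supply most of its RNA, fibroblasts make the collagen scaffold and many secreted proteins, and endothelial cells, pericytes and macrophages fill the rest. The sexes differ in gonadal steroids, in the pattern of growth hormone secretion and in the level of circulating glucocorticoid, and genes on autosomes can respond to each of these. Complement, a cascade of plasma and tissue proteins, ends in a membrane pore of which C7 is one part, and Hsd11b1 encodes the enzyme that regenerates active glucocorticoid from its inactive keto form inside cells.

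The promoters of C7 and Hsd11b1, the lower autosomal genes of smallest p in females, are shown as the 250 bases before the RefSeq start in GRCm38.p6, each 5′ to 3′ on the gene's strand. C7 lies on the minus strand at chr15:5063774-5064023 and Hsd11b1 on the minus strand at chr1:193242361-193242610. Capitals mark matches on either strand to AGGTCA (a nuclear receptor hexamer), TTCNNNGAA (a STAT5 site), TATAAA or CCAAT.
C7: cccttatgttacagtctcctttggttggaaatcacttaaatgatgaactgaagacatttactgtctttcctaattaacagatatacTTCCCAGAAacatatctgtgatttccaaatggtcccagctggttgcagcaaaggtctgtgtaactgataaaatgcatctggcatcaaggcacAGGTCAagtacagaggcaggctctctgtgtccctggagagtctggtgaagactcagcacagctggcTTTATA
Hsd11b1: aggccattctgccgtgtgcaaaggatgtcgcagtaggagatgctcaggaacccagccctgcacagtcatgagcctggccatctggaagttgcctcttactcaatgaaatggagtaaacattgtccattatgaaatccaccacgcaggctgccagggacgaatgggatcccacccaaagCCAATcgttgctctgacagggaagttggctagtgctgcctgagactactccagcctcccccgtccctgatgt

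C7 held AGGTCA with its first base 72 bases before the start and TTCCCAGAA 164 bases before it. The reverse complement of TATAAA ended at the base before the start. Hsd11b1 held none of these but had CCAAT 72 bases before its start. Promoter windows of 250 bases before to 50 after the start were matched by symbol for 61 of the 83 autosomal genes described here and for 10585 of those tested. AGGTCA was found in 6 of the 61 windows (9.84%) and in 12.2% of all windows, and AGAACA, the glucocorticoid and androgen receptor hexamer, in 6 of the 61 (9.84%) and in 12.2% of all. TTCNNNGAA was in 2 (3.28%) against 6.79%, TATAAA in 9 (14.8%) against 7.3%, and CCAAT in 20 (32.8%) against 38.1%. Inverted repeats, spaced by 3 bases, of GGTCA (the oestrogen receptor element) or of AGAACA (the glucocorticoid and androgen receptor element) were in none of the 10585 windows. Overlapping matches were counted for each motif, and these letters say nothing of binding.

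Total counts were 24719548 ± 3935686 in males and 21139370 ± 2378815 in females (SD, n = 6 each), and single libraries held 18732379 to 30867399. Neither this (two-sided exact permutation p = 0.0823, adjusted over 5 library measures 0.411) nor the mitochondrially encoded share, 17.6% in males and 17.5% in females, differed beyond the spread between mice. Xist was at 186 CPM or more in every female and at 0.0506 CPM or less in every male, and Ddx3y was at 0 in every female, so the labels of sex matched. Ppp2r2a stood at 36.2 to 46.7 CPM in the females and at 41.9 to 47.7 CPM in 4 males, but the libraries labelled control male 3 and male 6 had 24.9 and 24.1 CPM, between these and the cKO mice (9.963 to 16.24 CPM). The level of these 2 libraries goes against a label of intact Ppp2r2a, and they were kept as labelled. Female 2 stood apart from the other 11 on the first principal component (-42.8, against -7.69 to 16.9), which held 15.6% of the variance. Ventricular cardiomyocyte markers summed to 96517 CPM or more in every library, while the adipocyte list summed to 17.5 CPM at most and the skeletal muscle list to 1.89 CPM at most. CPM here is a count scaled to library size with TMM factors.

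At an edgeR adjusted p under 0.05, which defines a call, 83 of 14643 autosomal genes (0.567%) differed between the sexes, 37 higher in females (0.253%) and 46 lower (0.314%). The median size of their log2 fold change was 0.63, against 0.0927 over all autosomal genes tested. At least 2-fold differences were found for 11 of the higher and 19 of the lower genes, and 32 genes differed by less than 0.5 on the log2 scale. The 6 females and 6 males did not overlap in CPM for 46 of the 83, against 138 of all 14643 (0.942%). Fewer cells of a type and less RNA per cell cannot be told apart in whole tissue. The count moved by over 1.5 times when single mice were left out: it was 41 without male 2, 40 without male 3, 47 without male 4, 42 without female 4 and 50 without female 6, and 26 without males 3 and 6 together. In 25 refits, with other scalings, tools, filters or a mouse left out, 14 of the 44 called genes followed singly stayed called wherever they were tested, and 12 of these were lower in females. Losses given below for single genes are mostly those with mice left out, and other refits lost further calls.

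**Figure D1:**
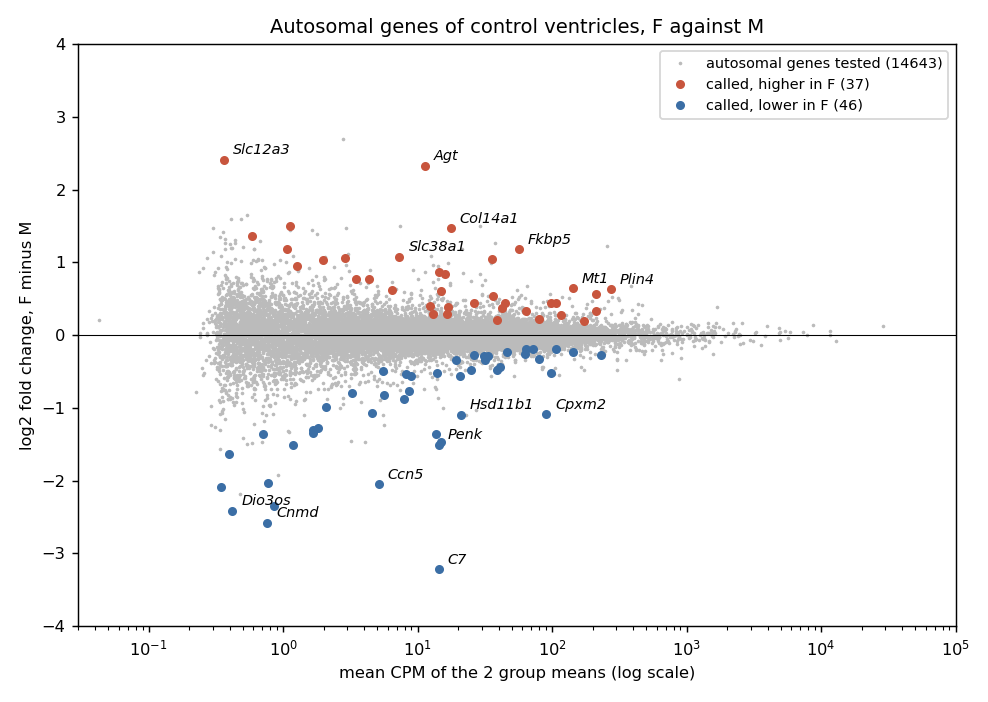
Log2 fold change of females against males (y axis) by mean CPM of the group means (x axis, log scale) for 14643 autosomal genes, with the 37 called higher genes in red and the 46 called lower genes in blue. C7 is the called gene of largest size, at -3.22, and most called genes lie within 1 log2 unit of 0.

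Complement genes gave the largest difference. C7 ran from 13.96 to 38.0 CPM in males (median 24.0) and from 1.71 to 4.58 CPM in females (median 2.62). Every male was above every female. The level was 9.31-fold lower in females (log2 fold change -3.22, SE 0.29, edgeR adjusted p = 9.46e-08). C4b, the fourth component of the classical and lectin pathways, had 10.7 to 26.4 CPM in males (median 20.7) and 6.67 to 11.3 CPM in females (median 6.91). Only female 4, at 11.3 CPM, reached the lowest male (log2 fold change -1.36, SE 0.24, edgeR adjusted p = 0.00339). Its copy C4a shares nearly all of its sequence, so reads may have been split between them or left uncounted. C4a itself was at 0.634 CPM or less in every mouse.

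Of 22 complement components and regulators tested, C7 and C4b were called lower, none was called higher, and the median log2 fold change was -0.10 (all autosomal genes: 0.0032). Of all autosomal genes tested, 0.567% were called. The list was chosen with earlier results of these data known, so the C7 call carries no weight for it. C3, the central component, had 112 to 154 CPM in males and 56.8 to 124 CPM in females and missed the threshold (log2 fold change -0.55, edgeR adjusted p = 0.185). Cfd, complement factor D and also an adipocyte marker, had 0.427 to 1.76 CPM in males and 1.05 to 3.71 CPM in females (log2 fold change 1.44, edgeR adjusted p = 0.268).

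Genes of fibroblasts and matrix moved in both directions. Col14a1, a fibril-associated collagen, had 7.78 to 10.8 CPM in males (median 8.96) and 14.2 to 33.6 CPM in females (median 26.8). No female reached down to the highest male, and the rise was 2.76-fold (log2 fold change 1.47, SE 0.17, edgeR adjusted p = 4.08e-06). Thy1, a surface glycoprotein of fibroblasts, neurons and T cells, had 9.91 to 12.9 CPM in males (median 12.2) and 14.1 to 25.5 CPM in females (median 17.4). These ranges did not overlap either (log2 fold change 0.61, SE 0.10, edgeR adjusted p = 0.00155), but the call was lost in a fit on the 12 control libraries alone (adjusted p = 0.0536).

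Ccn5, a matricellular protein of the CCN family, was at 5.59 to 13.2 CPM in males (median 8.01) and at 1.38 to 2.39 CPM in females (median 2.05). All males lay above all females, and the level was 4.15-fold lower in females (log2 fold change -2.05, SE 0.31, edgeR adjusted p = 0.000424). Cpxm2, a secreted carboxypeptidase-like protein, had 88.0 to 147 CPM in males (median 136) and 43.7 to 75.9 CPM in females (median 57.3). It also separated the sexes without overlap (log2 fold change -1.09, SE 0.17, edgeR adjusted p = 0.000841). Slit3, a secreted ligand of Robo receptors, had 7.80 to 12.7 CPM in males (median 10.3) and 4.13 to 7.10 CPM in females (median 5.33), again without overlap (log2 fold change -0.88, SE 0.15, edgeR adjusted p = 0.00184). Cnmd, the angiogenesis inhibitor chondromodulin, was low in both sexes, at 0.798 to 2.07 CPM in males and 0.0526 to 0.448 CPM in females (log2 fold change -2.58, SE 0.46, edgeR adjusted p = 0.00332). These 4 genes kept their calls in every refit that tested them.

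**Figure D2:**
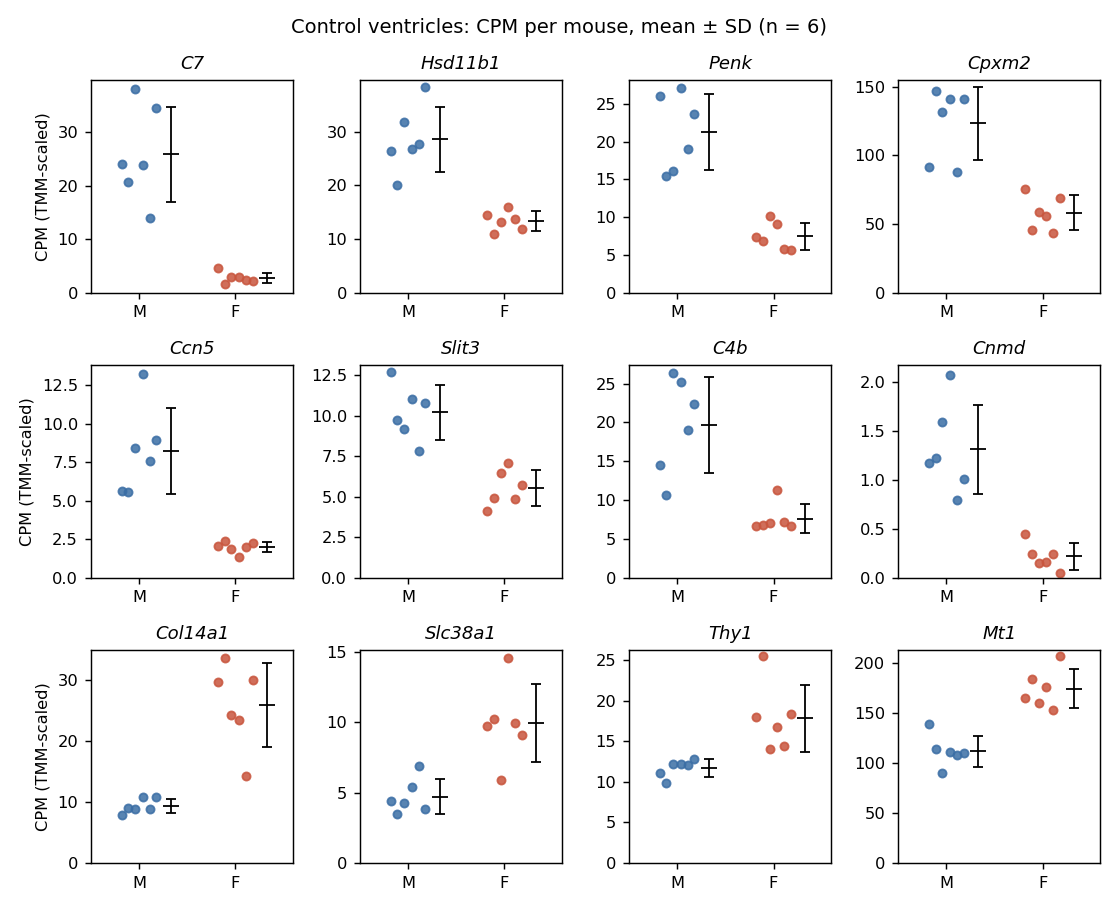
CPM (y axis, from 0) in each of 6 male (M, blue) and 6 female (F, red) control mice for 12 genes, with the mean and SD in black. C7, Hsd11b1, Penk, Cpxm2, Ccn5, Slit3, C4b and Cnmd are lower in females and Col14a1, Slc38a1, Thy1 and Mt1 higher, and the sexes overlap for C4b and Slc38a1 among these 12.

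A second group of matrix genes was called with less certainty, and all but Col6a6 of the 7 genes here and in the next paragraph were picked after their values were seen. Efemp1, a fibulin, was lower in females (4.04 to 10.3 CPM in males, 2.31 to 3.63 CPM in females, log2 fold change -1.07, edgeR adjusted p = 0.0158). Serpine2, an inhibitor of thrombin and other serine proteases, was lower by less (24.6 to 35.1 CPM against 17.7 to 25.04 CPM, log2 fold change -0.48, edgeR adjusted p = 0.00716), and its call was lost without males 3 and 6 (adjusted p = 0.0834). The Serpine2 call was also lost in the 12 control libraries alone (adjusted p up to 0.133 over all refits). Col6a6, a collagen VI chain, fell from 7.69 to 14.5 CPM in males to 5.41 to 7.51 CPM in females (log2 fold change -0.76, edgeR adjusted p = 0.0225). Its call was lost without male 4, male 6, female 4 or female 6 (adjusted p up to 0.0645). Osr1, a transcription factor of mesenchymal cells, was also lower (2.35 to 3.99 CPM against 0.585 to 1.94 CPM, log2 fold change -0.99, edgeR adjusted p = 0.0363), and of the 12 single omissions those of male 5, female 1, female 3 and female 6 kept its call (adjusted p up to 0.091 in the others, and 0.118 without males 3 and 6 together).

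Higher in females were Adamtsl2, Mgp and Tgfbr3. Adamtsl2, a matrix glycoprotein that binds fibrillin, had 18.7 to 29.4 CPM in males and 28.8 to 69.2 CPM in females (log2 fold change 1.04, edgeR adjusted p = 0.0245), with females 2 and 6 highest at 68.2 and 69.2 CPM. Its call was lost without male 2, 4 or 5 or without female 2 or 6 (adjusted p up to 0.0705). Mgp, an inhibitor of tissue calcification, had 131 to 217 CPM in males and 207 to 323 CPM in females (log2 fold change 0.57, edgeR adjusted p = 0.0273), and lost its call without male 1, 2, 3 or 5 or female 1, 2 or 6 (adjusted p up to 0.0752). The Mgp call was also lost with no filter and in the 12 control libraries alone (adjusted p up to 0.163 over all refits). Tgfbr3, the TGF-β coreceptor betaglycan, had 29.8 to 45.0 CPM and 44.2 to 58.0 CPM (log2 fold change 0.44, edgeR adjusted p = 0.0219), and lost its call without male 2 or 3 or female 4 or 6 (adjusted p up to 0.0645).

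Over the lists, 4 of 21 fibroblast markers were called, Col14a1 and Thy1 higher and C7 and Penk lower, with a median log2 fold change of 0.0096. Of all autosomal genes tested, 0.567% were called. C7, Penk and Thy1 were put on this list with earlier results of these data known, so their calls carry no weight for the list. The summed level of the 21 markers was 2629 to 3588 CPM in males and 2722 to 3524 CPM in females. The general fibroblast markers Dcn and Lum were not called. Dcn had a median of 526 CPM in males and 435 CPM in females (log2 fold change -0.26), and Lum 51.5 and 67.2 CPM (log2 fold change 0.39). Of 30 collagen genes tested, Col14a1 was called higher and Col6a6 lower, and the median was -0.0038.

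Among steroid genes, Hsd11b1 had 20.1 to 38.3 CPM in males (median 27.3) and 10.9 to 16.0 CPM in females (median 13.4). Every male exceeded every female by CPM, and the level was 2.13-fold lower in females (log2 fold change -1.09, SE 0.11, edgeR adjusted p = 4.72e-07). It was the 1 gene called among 20 steroid receptors and steroid enzymes tested, whose median was 0.00044, where 0.567% of all autosomal genes were called. This list was chosen with earlier results of these data known, so the Hsd11b1 call carries no weight for it. Nr3c1, the glucocorticoid receptor, had medians of 73.9 CPM in males and 64.0 CPM in females and missed the threshold (log2 fold change -0.22, edgeR adjusted p = 0.0709). It stayed uncalled in 11 of 13 refits other than single omissions and in 10 of 12 single omissions, and was called in the rest. H6pd, which supplies the cofactor of the Hsd11b1 enzyme, had medians of 38.0 and 45.3 CPM (log2 fold change 0.22, edgeR adjusted p = 0.246). Esr1, the oestrogen receptor α gene, was at 0.246 to 1.17 CPM over the 12 mice, and Esr2, Pgr and Cyp19a1 had 0 counts in all 12.

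All 17 tested genes of a list of known glucocorticoid-responsive genes had a positive log2 fold change, with a median of 0.45, where 50.9% of all autosomal genes were positive. Only Mt1 and Fkbp5 of the 17 were called (11.8%, against 0.567% of all autosomal genes). Mt1, a metallothionein, had 89.4 to 138 CPM in males (median 110.1) and 153 to 207 CPM in females (median 170.2). The sexes did not overlap (log2 fold change 0.64, SE 0.12, edgeR adjusted p = 0.00622), and the call was lost without males 3 and 6 (adjusted p = 0.0764). Fkbp5, a co-chaperone of the glucocorticoid receptor, had 18.7 to 49.3 CPM in males (median 35.9) and 34.9 to 104 CPM in females (median 82.3). Female 5, at 34.9 CPM, fell among the males, while the other 5 females were at 70.7 CPM or more (log2 fold change 1.18, SE 0.28, edgeR adjusted p = 0.0457). Of the 12 single omissions, those of male 2 and female 5 kept this call, and the adjusted p reached 0.11 in the others. The call was also lost with voom, with no filter, in the 12 control libraries alone, with sex-chromosome genes removed and without males 3 and 6 (adjusted p from 0.0515 to 0.133).

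Cdkn1a, an inhibitor of cyclin-dependent kinases, had 20.8 to 28.2 CPM in males and 32.5 to 90.2 CPM in females. Its ranges did not overlap, and female 2 was far above the rest. The gene missed the threshold (log2 fold change 0.99, edgeR adjusted p = 0.0618), which it passed in the DESeq2 Wald test (adjusted p = 0.0089). It stayed uncalled in 9 of 13 refits other than single omissions and in 10 of 12 single omissions, and was called in the rest. Pdk4, Klf9 and Zbtb16, which respond to fasting or steroid in many tissues, had log2 fold changes of 0.68, 0.30 and 0.52 and adjusted p values of 0.324, 0.3 and 0.383. The summed level of the list was 890 to 1414 CPM in males and 1280 to 2146 CPM in females. Without female 2, 13 of the 17 stayed positive and the median was 0.38. In cKO mice the list's median sex difference was 0.020, with 10 of 17 positive. Time of day and stress at collection are not in the labels, and their part was not tested. Lrg1, a secreted leucine-rich glycoprotein picked after its values were seen, was called higher in females (27.2 to 37.3 CPM in males, 35.3 to 47.7 CPM in females, log2 fold change 0.54, edgeR adjusted p = 0.0245). Its call was lost without male 2, 3, 4 or 6 or female 4 or 6 (adjusted p up to 0.0647).

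**Figure D3:**
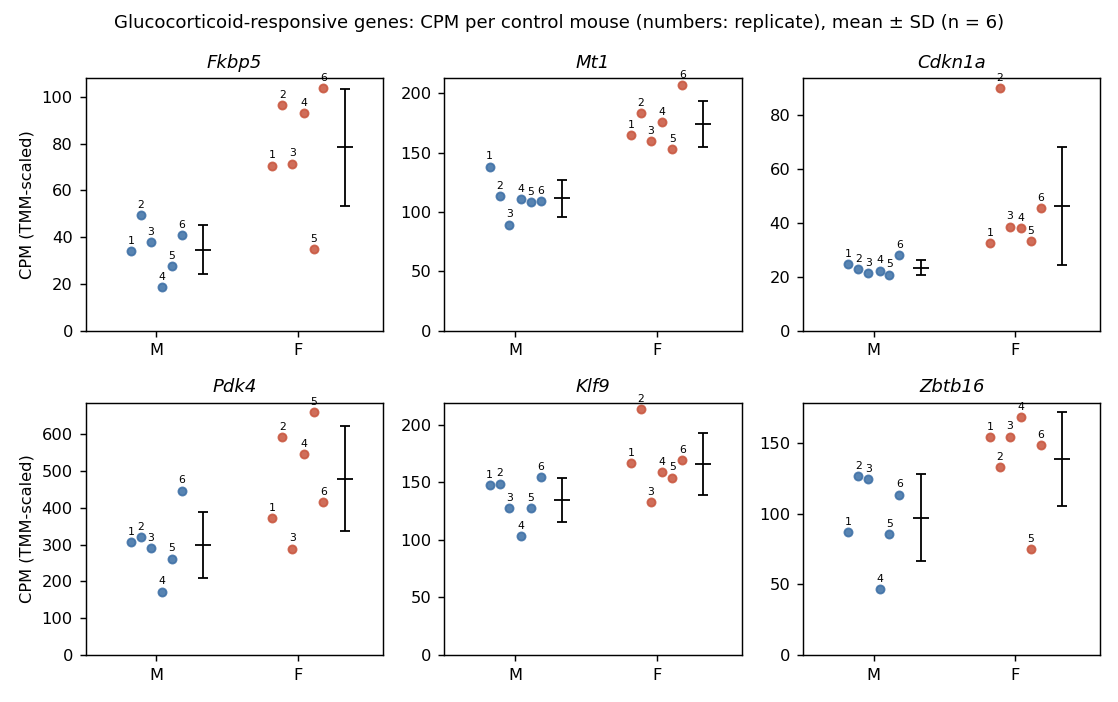
CPM (y axis, from 0) of 6 genes of the glucocorticoid-responsive list in each control mouse, numbered by replicate, with the mean and SD in black (M blue, F red). Mt1 and Cdkn1a separate the sexes, female 5 lies low for Fkbp5 (34.9 CPM) and Zbtb16 (74.9 CPM), and female 2 is highest for Cdkn1a (90.2 CPM).

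A pair of peptide precursor genes differed in opposite directions. Penk, the precursor of the enkephalin opioid peptides, had 15.5 to 27.1 CPM in males (median 21.3) and 5.68 to 10.1 CPM in females (median 7.10). The ranges were apart, and the level was 2.84-fold lower in females (log2 fold change -1.51, SE 0.19, edgeR adjusted p = 2.97e-05). Penk was the only gene called of 5 opioid genes tested, where 0.567% of all autosomal genes were called. The opioid list was chosen with earlier results of these data known, so the Penk call carries no weight for it. Oprm1 and Oprk1, which encode opioid receptors, had 0 counts in all 12 libraries. Agt, the precursor of angiotensin, had 2.25 to 5.20 CPM in males (median 3.95) and 6.37 to 49.4 CPM in females (median 8.40). All females were above all males, and females 2 and 3, at 49.4 and 34.3 CPM, were far above the other 4, which had 8.72 CPM or less (log2 fold change 2.33, SE 0.50, edgeR adjusted p = 0.0273). Without female 2 the log2 fold change was 1.76 with an adjusted p of 0.0746. The call was also lost without female 3 or male 2, 3, 4 or 6 (adjusted p up to 0.0767). Agt further lost its call with voom, with no filter and without males 3 and 6 together. So it did in the 12 control libraries alone, and with replicate number as a block (adjusted p up to 0.385 over all refits). Agt was picked after its values were seen.

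Furin, a convertase that cuts many precursor proteins, was higher in females by little. It had 97.8 to 118 CPM in males and 118 to 134 CPM in females (log2 fold change 0.28, SE 0.06, edgeR adjusted p = 0.0217), and its call was lost without male 3, 4 or 6 or female 4 or 6 (adjusted p up to 0.0588).

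Transporters and channels gave 1 call on a list. Slc38a1, a sodium-coupled carrier of glutamine and other neutral amino acids, had 3.47 to 6.87 CPM in males (median 4.33) and 5.91 to 14.6 CPM in females (median 9.87). Female 3, at 5.91 CPM, was below male 5, at 6.87 CPM, and the other 5 females were above all males (log2 fold change 1.08, SE 0.16, edgeR adjusted p = 0.000396). It was the 1 gene called of 26 amino acid transporters, which had a median of 0.030, where 0.567% of all autosomal genes were called. The transporter list was chosen with earlier results of these data known, so the Slc38a1 call carries no weight for it. None of 32 calcium handling and ion channel genes was called (median 0.034).

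A further 5 called genes, picked after their values were seen, encode transporters, channels and, for Adora1, a receptor. Aqp8, a water channel, was lower in females (10.7 to 43.0 CPM in males, 4.67 to 12.6 CPM in females, log2 fold change -1.47, edgeR adjusted p = 0.0208), and lost its call without male 2 or male 4 (adjusted p up to 0.0552). The Aqp8 call was also lost with voom, in the 12 control libraries alone and without males 3 and 6 together (adjusted p up to 0.201 over all refits). Kcnj14, an inward rectifier potassium channel, was lower (1.37 to 3.24 CPM against 0.622 to 1.52 CPM, log2 fold change -1.35, edgeR adjusted p = 0.00861), and lost its call only without males 3 and 6 together among the omissions of mice (adjusted p = 0.0757). Adora1, the adenosine A1 receptor, was higher without overlap (7.79 to 14.7 CPM against 16.8 to 25.5 CPM, log2 fold change 0.84, edgeR adjusted p = 0.0245), and lost its call without male 2, 3 or 4 or female 3, 4 or 6 (adjusted p up to 0.0701). Slc12a4, a potassium chloride cotransporter, was higher by 0.22 (67.8 to 77.4 CPM against 81.1 to 88.9 CPM, edgeR adjusted p = 0.031), and lost its call in 8 of the 12 single omissions, those of males 4 and 5 and females 2 and 5 excepted. Slc12a3, the thiazide-sensitive sodium chloride cotransporter, rested on 7 counts or fewer in each male and 25 or fewer in each female (log2 fold change 2.41, SE 0.54, edgeR adjusted p = 0.0274), and lost its call without male 2, 3 or 6 or female 4, 5 or 6.

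Among genes of lipid and sulphur metabolism, Plin4, a coat protein of lipid droplets, had 176 to 257 CPM in males (median 209.8) and 279 to 385 CPM in females (median 341). The sexes were apart (log2 fold change 0.63, SE 0.11, edgeR adjusted p = 0.00339). Its last exon overlaps Hdgfl2 on the other strand by 17 bases, and whether strand was used in counting is not given in the sources used here. Cdo1, cysteine dioxygenase, had 1.01 to 1.88 CPM in males (median 1.17) and 2.05 to 3.07 CPM in females (median 2.67), also apart (log2 fold change 1.03, SE 0.20, edgeR adjusted p = 0.00812). Without males 3 and 6 the adjusted p was 0.0556 for Plin4 and 0.103 for Cdo1. Foxo3, a transcription factor of the insulin pathway picked after its values were seen, was higher by 0.44 (edgeR adjusted p = 0.0256, 74.0 to 105 CPM in males and 104 to 142 CPM in females), and lost its call without male 3, 4 or 5 or female 1 or 4 (adjusted p up to 0.0765). The Foxo3 call was also lost with no filter, in the 12 control libraries alone and without males 3 and 6 together (adjusted p up to 0.146 over all refits).

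Of all autosomal genes tested, 0.567% were called and 50.9% had a positive log2 fold change, with a median of 0.0032. None of 33 genes of fatty acid uptake and oxidation was called with edgeR, while 30 had a positive log2 fold change and the median was 0.11. The DESeq2 Wald test called 4 of them, the fit with 1 surrogate variable 3, and the fit without male 1 called 2. The uncoupling protein gene Ucp3 had medians of 25.5 CPM in males and 35.8 CPM in females (log2 fold change 0.76, edgeR adjusted p = 0.0946), and Plin5, another droplet protein, 116 and 155 CPM (log2 fold change 0.40, edgeR adjusted p = 0.0855). With DESeq2 the adjusted p was 0.0159 for Ucp3 and 0.0276 for Plin5. Plin5 stayed uncalled in 11 of 13 refits other than single omissions and in 11 of 12 single omissions, and was called in the rest. The 5 adipocyte markers tested were also higher in mean in females (median log2 fold change 1.44), and none was called. They summed to 1.59 to 8.13 CPM in males and 4.57 to 17.5 CPM in females, and their part in the lipid genes was not tested. Of 81 nuclear oxidative phosphorylation genes, 68 were positive with a median of 0.051. The 1 called was Cox6b2, a cytochrome oxidase subunit known from testis, at 0.355 to 0.977 CPM in males and 0.893 to 2.02 CPM in females (log2 fold change 1.18, edgeR adjusted p = 0.0273), whose call was lost in 7 of 12 single omissions, those of males 2 to 6 and females 4 and 5. Gsta3, a glutathione transferase, was the 1 gene called of 26 xenobiotic and retinoid enzymes (8.16 to 12.2 CPM against 9.89 to 25.2 CPM, log2 fold change 0.86, edgeR adjusted p = 0.044), and of the 12 single omissions kept its call in those of female 2 and female 5 (adjusted p up to 0.117 in the others). No gene of glucose uptake and glycolysis (22 tested, median 0.0021) was called.

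Some called genes belong to none of these groups. Polq, DNA polymerase θ, had 14.3 to 19.1 CPM in males and 9.11 to 12.7 CPM in females, and the ranges were apart (log2 fold change -0.52, SE 0.09, edgeR adjusted p = 0.00301). The long noncoding RNA Dio3os had 0.43 to 0.959 CPM in males and 0 to 0.311 CPM in females (log2 fold change -2.41, edgeR adjusted p = 0.000699), a size that depends on the prior count because 3 counts equal 0.0972 to 0.16 CPM here. The gene 9330159F19Rik had 0.866 to 2.18 CPM in males and 0.0518 to 0.585 CPM in females (log2 fold change -2.34, SE 0.40, edgeR adjusted p = 0.00175). All 3 stayed called in every refit that tested them.

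The higher genes of this kind differed by 0.19 to 0.44 on the log2 scale, except 2010001K21Rik at 1.06. Pdzrn3, a ubiquitin ligase, was higher by 0.44 (edgeR adjusted p = 0.0106), and lost its call without males 3 and 6 (adjusted p = 0.107). Hnrnpl, a splicing factor, had 149 to 178 CPM in males and 175 to 195 CPM in females (log2 fold change 0.19, edgeR adjusted p = 0.0217), and lost its call without male 2, 3 or 6 (adjusted p up to 0.0625). The Hnrnpl call was also lost with no filter and in the 12 control libraries alone (adjusted p up to 0.205 over all refits). Usp54 (0.38, edgeR adjusted p = 0.0177) and 2010001K21Rik (1.06, edgeR adjusted p = 0.0204) lost theirs without male 2 or male 4, and Usp54 also without female 4. Klhdc8b (0.39, edgeR adjusted p = 0.0214) lost its call without male 3 or female 3, 4 or 6, and overlaps Ccdc71 on the other strand by 129 bases. The Klhdc8b call was also lost in the 12 control libraries alone (adjusted p up to 0.1785 over all refits). Of the lower genes picked after their values were seen, Gpnmb, a glycoprotein of macrophages, had 1.22 to 2.13 CPM in males and 0.158 to 1.15 CPM in females (log2 fold change -1.51, edgeR adjusted p = 0.0109), and lost its call without males 3 and 6 (adjusted p = 0.0834). Ankrd23, a muscle ankyrin repeat protein, had 77.1 to 149 CPM in males and 73.4 to 90.4 CPM in females (log2 fold change -0.53, edgeR adjusted p = 0.0444), and of the 12 single omissions kept its call in those of male 1 and male 5 (adjusted p up to 0.117 in the others). The 39 called genes not followed singly, 13 higher and 26 lower, had log2 fold changes from -2.09 to 1.5, and 22 of them differed by less than 0.5.

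No gene was called in 14 of the 15 lists of cell type markers, the fibroblast list, which holds C7, Penk and Thy1, being the exception. These 14 lists had 1 to 16 genes tested, and 0.567% of all autosomal genes were called. The absence of a call in them therefore says little of the cell types. Ventricular cardiomyocyte markers had a median log2 fold change of -0.0019 over 16 genes, and endothelial markers of -0.0099 over 14. Of 15 macrophage and monocyte markers 12 were lower in mean in females (median -0.19, and -0.087 without males 3 and 6), and their sum was 303 to 515 CPM in males and 280 to 403 CPM in females. Their part in the lower complement genes was not tested. Growth hormone and insulin-like growth factor genes gave no call over 21 genes (median 0.037). Igf1 itself had medians of 14.4 CPM in males and 10.3 CPM in females (log2 fold change -0.52, edgeR adjusted p = 0.148). It stayed uncalled in 12 of 13 refits other than single omissions and in all 12 single omissions. Of 19 circadian clock genes none was called, and Per2 and Cry1 had log2 fold changes of 0.47 and 0.46 (edgeR adjusted p = 0.103 and 0.0899). The DESeq2 Wald test called 2 of the 19. Over all autosomal genes tested, 50.9% were positive and the median was 0.0032. Ribosomal protein genes were positive in 72 of 80 with a median of 0.064 and no call, and in 51 of 80 without female 2. Immediate-early genes were positive in 17 of 20 with a median of 0.24 and no call, and in 11 of 20 with a median of 0.017 without female 2.

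**Figure D4:**
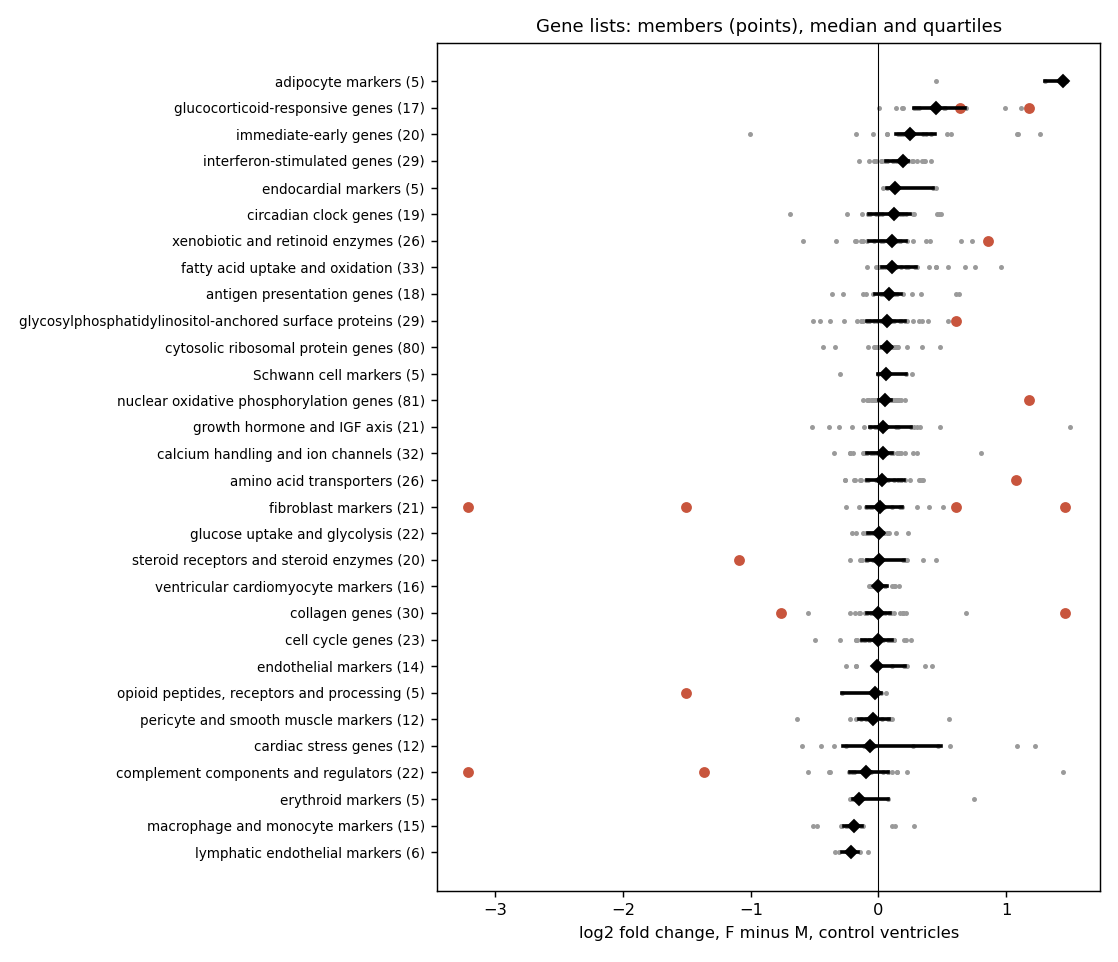
Log2 fold change of females against males (x axis) of each tested gene (points, red where called) in the 30 lists with 5 or more genes tested, with the median (diamond) and the quartiles (bar) and the number of genes in brackets. Medians lie between -0.22 and 0.24 except for the glucocorticoid-responsive genes (0.45) and the adipocyte markers (1.44).

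The same difference was measured in 14 other mice, the cKO females against the cKO males. Both comparisons came from 1 fit and shared its estimate of spread. Of the 83 genes, 82 kept their sign there, where 66.2% of all autosomal genes did, and Furin was the exception (-0.036). In cKO mice 33 of the 83 were called, 13 higher and 20 lower, against 2.6% of all autosomal genes. C7 (-2.97, edgeR adjusted p = 8.22e-08) and Hsd11b1 (-1.0, 8.62e-07) had log2 fold changes close in size to those in controls. C7 had 17.9 to 39.0 CPM in the cKO males and 1.36 to 5.54 CPM in the cKO females, without overlap. Of the 14 genes called in every refit, 13 were called in cKO too, Cnmd being the other (-1.37, edgeR adjusted p = 0.0815).

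For 72 of the 83 the size was smaller in cKO than in Ctrl, with a median ratio of 0.612. The genes were chosen for their difference in Ctrl, so a smaller size elsewhere carries no weight by itself. The difference between the genotypes was tested in the same fit, and no autosomal gene was called (0%, smallest adjusted p 0.707), with 578 genes (3.95%) under an unadjusted p of 0.05 and no call in any other tool or setting run. The interaction reached an unadjusted p under 0.05 for 16 of the 83, all 16 smaller in cKO. The choice of genes by their Ctrl difference also favours such p values, so these carry no weight by themselves. Penk was lower by 1.51 log2 units in Ctrl females and by 0.74 in cKO females (interaction unadjusted p = 0.00666), Col14a1 higher by 1.47 and 0.90 (0.017), Ccn5 lower by 2.05 and 1.01 (0.0156), and Gpnmb lower by 1.51 and 0.13 (0.00216). None of these survived adjustment.

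**Figure D5:**
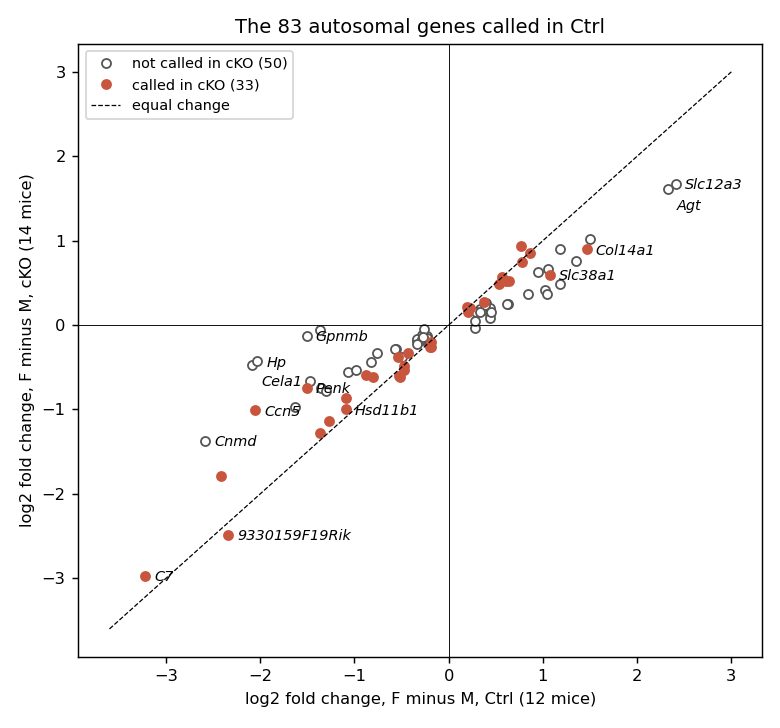
Log2 fold change of females against males in Ctrl (x axis, 12 mice) and in cKO (y axis, 14 mice) for the 83 autosomal genes called in Ctrl, filled where also called in cKO (33), with a dashed line of equal change. C7 and 9330159F19Rik lie near the line, and Gpnmb (-0.13), Cela1 (-0.47) and Hp (-0.43) are closer to 0 in cKO.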

How the data were processed

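The deposited table holds raw gene counts, in whole numbers, for 26 libraries. Per the submitters' processing notes, FastQC 0.74, cutadapt 4.6, STAR 2.7.11a, HTSeq and GRCm39 were used, and the annotation release and strand setting are not given in the sources used here. Per the labels' protocols, stranded libraries were made by poly-A selection from 500 ng of RNA (integrity number 7.7 or more). Paralogs and overlapping genes are therefore uncertain. Chromosomes came from GENCODE M21 by gene ID (15094 of 15357 genes tested) or RefSeq by symbol (73), and 190 genes with none were left out of autosomal counts.

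Counts were tested in R 4.3.3 with edgeR 4.0.16 (minimum count 10 in filterByExpr, TMM, robust quasi-likelihood F test) in 1 fit of all 26 libraries with 4 group means, with Benjamini-Hochberg adjustment over all genes tested. Library measures were tested by exact permutation over 924 splits. The genes named by rule are 5 markers, the 12 higher and 12 lower called genes of smallest p and called genes of 35 gene lists, 28 in all. Another 16 called genes, and 21 uncalled list members followed through the refits, were chosen after their values were seen, as were the other uncalled genes given with values. The members and the lists were chosen with earlier results of these data known, so a call of 1 of the 5 markers carries no weight for its list. No list was tested as a set. Alternatives were DESeq2 1.42.0, limma 3.58.1 voom, sva 3.50.0, other filters, thresholds and sample sets, each mouse left out, and a length and GC correction added later. Pairs of libraries within a group differed by 10.4 to 33.4 in chi-square per degree of freedom, so none was a copy. The fit was tested on simulated data with changes set in the control females. There edgeR recovered 19.5% of changes of 0.25 log2 units and 59.3% of those of 0.5. Of its calls 3.47% were false, against 9.17% for the DESeq2 Wald test, so calls found only with DESeq2 are less certain. The simulated counts were drawn independently with no outlying mouse, so these shares need not hold for the real libraries. Some genes are not reported here.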

Additional observations from a re-analysis of the deposited data

Results flagged for a closer look

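In 132 groups of 6 mice, 1 for each sex and for each of the named genes and Ppp2r2a, 7 had a single mouse whose gap to the nearest of the other 5, on the log2 CPM scale, took up more of the range than Dixon's 95% limit. Chance gives about 5% of groups. C4b in females was at 11.3 CPM in female 4 and at 6.67 to 7.13 CPM in the other females. Lrg1 was at 37.3 CPM in male 1, with the other males at 27.2 to 29.8 CPM. Female 5 was low for Fkbp5, at 34.9 CPM where the others had 70.7 to 104 CPM, and for the transcription factor gene Zbtb16, at 74.9 CPM where the others had 133 to 168 CPM. Female 2 was past this limit for 3 genes. Cdkn1a was at 90.2 CPM there and at 32.5 to 45.4 CPM in the others, the adipocyte and muscle carbonic anhydrase Car3 at 9.7 CPM against 2.63 to 3.99 CPM, and the mesothelial marker Wt1 at 25.5 CPM against 3.43 to 5.29 CPM. The list of mesothelial markers summed to 25.8 CPM in its highest female and to 8.84 CPM in its highest male.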

How the results depend on the processing

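The 83 calls (37 higher, 46 lower; 33 called in cKO too) became 234 (108, 126; 96) with the DESeq2 Wald test, which kept all 83, and 144 (64, 80; 54) with 1 surrogate variable. They became 59 (21 higher; 21 called in cKO) with no filter, 47 (20, 27) in a fit of the 12 control libraries alone, 26 (5, 21; 19) without males 3 and 6, 23 (6, 17) at an adjusted p under 0.01 and 51 (22, 29) at a log2 size of at least 0.5. With 1 mouse left out, the counts ran from 40 to 100 for all, 12 to 51 for higher, 26 to 61 for lower and 19 to 44 for those called in both genotypes. The cause of these moves was not tested. DESeq2 size factors (85), voom (89), no robust estimation (90), a mean of at least 5 CPM (70), sex-chromosome genes removed (81) and the length and GC correction (102, chosen after seeing the data) stayed within 1.5 times. Mice sharing a replicate number did not deviate together over the autosomal genes (correlations from -0.172 to 0.0946, none best with its own number). So few pairs cannot exclude a shared litter or day, which the labels do not give. The replicate block gave 82 calls in all 26 libraries and 27 (8, 19) in the 12 controls. Of the genes followed singly, the fit of the 12 control libraries without the block lost Adamtsl2, Agt, Ankrd23, Aqp8, Cox6b2, Fkbp5, Foxo3 and Gsta3. It also lost Hnrnpl, Klhdc8b, Mgp, Osr1, Serpine2, Slc12a4, Thy1 and Usp54. Only Wt1, not called, reversed, from 0.74 to -0.0781 without female 2, and ran from there to 0.898 with other mice left out. Depth limits genes near 3 counts, such as Slc12a3 and Dio3os.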

Other observations

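The share of called genes per chromosome ran from 0 to 1.35%, against 0.567% of all autosomal genes. Only the highest and lowest shares are given, and whether they exceed a chance spread was not tested. Chromosome 15 held 8 of 591 genes tested (1.35%), among them C7, Col14a1 and Slc38a1, chromosome 17 held 8 of 755 (1.06%), among them C4b, Plin4, Fkbp5 and Lrg1, and chromosome 3 held 0 of 731. Some genes spread widely within each sex. The α-globin gene Hba-a2 ran from 0 to 66.6 CPM within the 6 males and from 0.0498 to 81.2 CPM within the 6 females, and the class II histocompatibility gene H2-Eb1 from 1.45 to 13.6 CPM and from 1.14 to 22.3 CPM. Neither was called in the edgeR fit (adjusted p = 0.889 and 0.846). The insulin receptor substrate gene Irs2 reached 135 CPM in female 2, where the other females had 15.7 to 38.0 CPM. Of the 83 called genes, 71 were on none of the 35 gene lists.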
